A study of Mus musculus with 16 samples.

Results

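The 9 genes described here code for the parts of the inflammasome and of pyroptosis, the lytic cell death that follows its activation. They were taken by symbol from the 49315 genes of the count files as Nlrp3, Nlrc4, Nlrp12, Aim2, Pycard, Casp1, Casp4, Gsdmd and Ninj1, and each of the 9 matched 1 Ensembl gene. The rule uses their names and no measured value. An inflammasome is a complex built in the cytosol when a sensor protein meets a microbial or danger signal. The sensor binds the adaptor ASC, the product of Pycard, which recruits and activates caspase-1. Caspase-1 matures interleukin-1β and interleukin-18 and cleaves gasdermin D, whose fragment forms pores, and caspase-11, the product of mouse Casp4, cleaves gasdermin D after sensing lipopolysaccharide. Ninjurin-1 then ruptures the plasma membrane. Neutrophils express these components, release interleukin-1β and are comparatively resistant to pyroptosis.

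RNA was sequenced from neutrophils of WT mice and of mice that lack the integrin subunit αD (αD KO, gene Itgad, from a commercial repository). The males were 8 to 12 weeks old, and the cells came from blood or lung, either untreated (0h) or 12 hours past a cecal ligation and puncture (CLP), an operation that causes polymicrobial abdominal sepsis. All groups shared the sort for Ly6G+/CD11b+/CD45.2+ cells, and neither a sham operation nor a cell-type restricted deletion was part of the design. There were 8 groups of 3 libraries from 16 labelled samples, because the sample numbered 1 of each group came with 2 count files (libraries 1a and 1b here) beside library 2. The study describes its RNA-seq as made in triplicate, while the labels put files 1a and 1b under the same sample. It is not known if these hold different animals, and p-values measure only the spread between these libraries.

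Total counts per library were between 5753476 and 29984954. Libraries 1b had counts for 29162 to 38844 genes and the others for 17132 to 32666. The targeted gene, Itgad, ranged from 0.0522 to 4.08 CPM (counts scaled to the library size) over the 12 libraries labelled WT. Over the 12 labelled αD KO it ranged from 12.6 to 96.1 CPM, so the labelled KO libraries were all higher. Files that count whole genes cannot show whether RNA of the altered allele is intact, and this gene went against the genotype labels. WT and αD KO below mean the libraries so labelled. All 8 neutrophil markers, such as S100a8 and Ly6g, had counts in every group, with a summed level of 36976 to 190047 CPM per library. The sum of 8 markers of immature neutrophils, among them Elane, Mpo and Camp, was 51.0 to 6754 CPM in WT blood at 0h and 63813 to 147469 CPM at 12 hours. Sums of monocyte and macrophage (12 genes), B cell (4), T and NK cell (6), platelet (4), erythroid (5) and lung structural (8) markers were at most 1485, 373, 276, 598, 8815 and 833 CPM. Of the 12 monocyte and macrophage markers, Csf1r alone was 90.2 to 812 CPM over the libraries, so that sum rests to a large part on a single gene.

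Several lung libraries stood apart from their labels. On a scale of 1330 other genes that changed with time in WT lung, set to 0 at the mean of WT lung 0h and to 1 at that of WT lung 12 hours, the WT libraries lay at −0.05, 0.12 and −0.03 and at 1.19, 0.70 and 1.04. Each WT library was left out of its own group mean when it was placed. The genes were called between these same WT libraries, so WT positions near 0 and 1 follow in part from that choice. The libraries labelled αD KO lung 0h lay at 0.15, 0.11 and 1.02 (libraries 1a, 1b and 2), and those labelled αD KO lung 12 hours at 0.09, 0.85 and 0.18. Library 2 of αD KO lung 0h therefore lay with the WT libraries at 12 hours, and libraries 1a and 2 of αD KO lung 12 hours lay near the WT libraries at 0h. All results from αD KO lung rest on these libraries.

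The genes lie on 7 chromosomes (GRCm38). Nlrp12 (7:3218784-3249740, minus strand) and Pycard (7:127989708-127993867, minus strand) share chromosome 7 with Itgad, and Pycard lies 160.5 kb from it. Casp1 (9:5298517-5307265) and Casp4 (9:5308828-5336783) are neighbours on the plus strand. Nlrp3 is at 11:59541568-59566956, Nlrc4 at 17:74426295-74459108, Aim2 at 1:173350879-173466040, Gsdmd at 15:75862339-75867404 and Ninj1 at 13:49187485-49196244. Pycard overlaps Gm45205 and Aim2 overlaps Cadm3, both on the opposite strand, and 7 microRNA genes lie within Nlrp12. The strand of counting is not given in the sources used here, so reads of a gene and its opposite partner cannot be told apart. Cadm3 had at most 3.53 CPM in any library. Gm45205 had 5.35 to 8.95 CPM in WT blood 0h, where Pycard had 11.5 to 18.7 CPM, and 3.25 to 4.65 CPM in αD KO lung 12 hours, where Pycard had 6.63 and 7.27 CPM in libraries 1a and 2. Its part in the low values of Pycard was not tested.

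Promoter sequences from RefSeq (GRCm38.p6, the 250 bases before the start) matched 8 of the 9 genes. For Nlrp3 and Casp4 the table lists 2 starts each, of which the one nearest to the annotated gene start was used and the other was not searched. Sequences are shown for 2 genes that fell and 2 genes that rose in blood neutrophils after CLP, since members that moved together can be compared there. Capitals mark matches, on either strand, to 5 motifs searched in these windows: a simplified NF-kB pattern (present in 4.11% of 32851 promoters of this length), TTCNNNGAA (STAT, 7.02%), a simplified ISRE pattern (2.98%), TGANTCA (AP-1, 6.75%) and GAGGAAG (PU.1, 10.6%).
Nlrp3 chr11:59541319-59541568, plus strand: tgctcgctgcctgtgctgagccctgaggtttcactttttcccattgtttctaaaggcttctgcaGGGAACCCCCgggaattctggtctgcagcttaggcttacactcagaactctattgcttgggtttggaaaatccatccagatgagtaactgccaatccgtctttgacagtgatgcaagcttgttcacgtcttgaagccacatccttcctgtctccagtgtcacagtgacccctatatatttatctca
Nlrp12 chr7:3249741-3249990, minus strand: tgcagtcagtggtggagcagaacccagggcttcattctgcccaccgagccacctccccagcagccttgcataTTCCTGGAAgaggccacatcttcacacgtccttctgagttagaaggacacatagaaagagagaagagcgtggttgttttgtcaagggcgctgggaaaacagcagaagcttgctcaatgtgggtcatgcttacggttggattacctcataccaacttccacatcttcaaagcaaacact
Pycard chr7:127993868-127994117, minus strand: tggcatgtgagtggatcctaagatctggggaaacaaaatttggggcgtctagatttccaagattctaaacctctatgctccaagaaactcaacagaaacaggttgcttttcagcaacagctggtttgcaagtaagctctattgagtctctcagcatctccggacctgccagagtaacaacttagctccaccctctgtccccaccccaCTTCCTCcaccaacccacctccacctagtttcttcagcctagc
Casp4 chr9:5308599-5308848, plus strand: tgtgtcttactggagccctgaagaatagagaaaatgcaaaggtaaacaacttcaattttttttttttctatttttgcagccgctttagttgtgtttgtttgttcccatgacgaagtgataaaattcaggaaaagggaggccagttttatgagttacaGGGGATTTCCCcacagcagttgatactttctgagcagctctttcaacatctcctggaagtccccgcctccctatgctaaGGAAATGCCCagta
The NF-kB pattern has fixed or free bases only and differs from the usual consensus, whose matches were not searched, so the number of NF-kB matches depends on it. The Casp4 window held 3 such matches, which begin 93, 92 and 14 bases before the RefSeq start and of which the first and second overlap. That window ends at 9:5308848, inside the gene as placed above, and the match at 14 bases lies within the gene. The Ninj1 window also ends inside its gene (13:49187528), and that of Aim2 (1:173420354-173420603) lies wholly inside. Nlrp3 held 1 NF-kB match 186 bases before the start, Nlrp12 1 STAT match at 178 bases and Pycard 1 PU.1 match at 43 bases. Aim2 also held 1 PU.1 match, and none of the 5 motifs matched in the windows of Nlrc4, Casp1 and Ninj1. A match describes the letters of a window and not a bound site.

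Per length, on the TPM scale (CPM divided by exon length and rescaled), the most abundant member was the membrane rupture protein Ninj1, with a median of 559 TPM over the 24 libraries. Gsdmd followed with 258, Nlrp12 with 119.6, Nlrp3 with 109.6, Casp1 with 77.9, Casp4 with 46.0, Aim2 with 21.2 and Pycard with 16.0 TPM. Nlrc4, the sensor that works with NAIP proteins on flagellin and secretion system proteins, had a median of 0.978 TPM and 957 counts in all libraries together. The members differed in how far they varied. Between the lowest and the highest library, CPM differed 61.4-fold for Nlrp3, 33.7-fold for Pycard, 24.4-fold for Ninj1, 24.1-fold for Aim2 and 17.2-fold for Nlrp12. For Casp4 the span was 8.24-fold, whereas Casp1 and Gsdmd spanned 3.35-fold and 3.03-fold.

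In the order of group means, Nlrp3 was highest in WT lung at 12 hours (517 ± 414 CPM, SD, n = 3) and lowest in αD KO blood at 12 hours (21.3 ± 5.61). Neighbouring groups in that order overlapped except at 1 step, from αD KO blood 0h (119 ± 48.6 CPM) down to WT blood 12 hours (25.9 ± 19.3). Nlrp12 ran from 499 ± 112 CPM in WT lung 0h to 72.2 ± 28.5 in αD KO blood 12 hours with every neighbour overlapping. Aim2 ran from 60.2 ± 16.0 CPM in WT lung 0h to 4.96 ± 1.94 in WT blood 12 hours, and only the step from WT lung 12 hours (22.9 ± 10.6) to αD KO blood 12 hours (5.66 ± 3.22) had no overlap. The order of Pycard was nearly the opposite, from 114 ± 61.6 CPM in WT blood 12 hours to 6.91 ± 2.34 in WT lung 0h, which lay below all libraries of its neighbour WT blood 0h (13.9 ± 4.16). Casp4 was highest in WT lung 12 hours (188 ± 111 CPM) and lowest in WT blood 0h (43.2 ± 4.11), with a gap between WT lung 0h (60.8 ± 13.4) and αD KO blood 0h (43.4 ± 3.11). Neighbouring groups of Nlrc4, Casp1, Gsdmd and Ninj1 all overlapped.

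**Figure D1:**
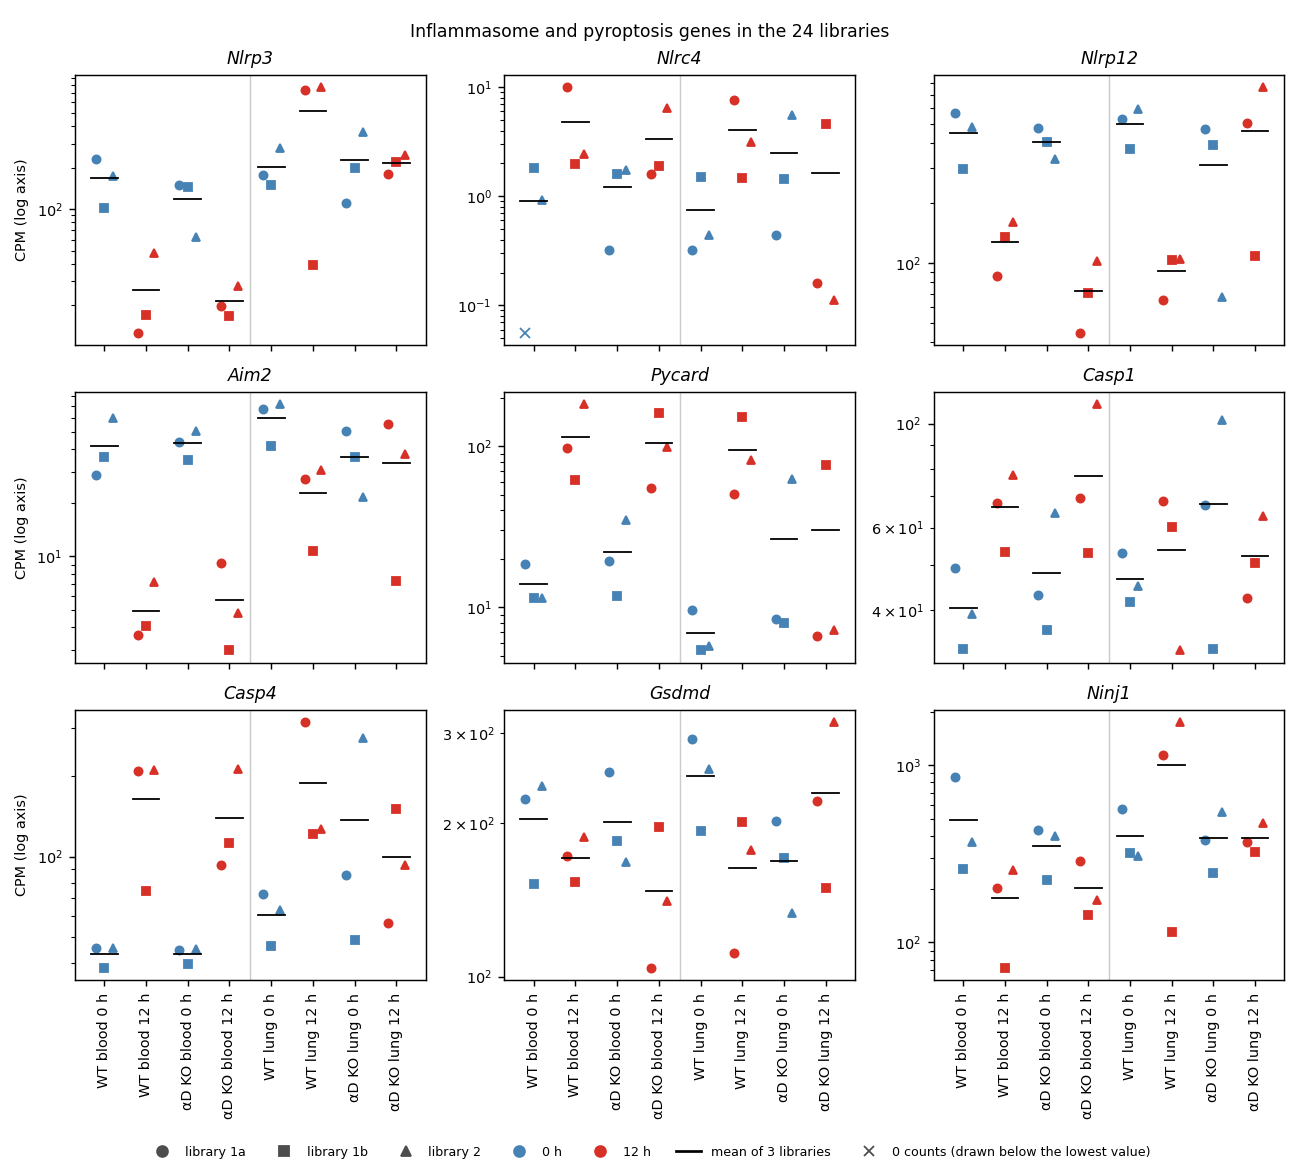
Level of each of the 9 genes in CPM (log axis) in the 24 libraries by group, with points for libraries 1a, 1b and 2, blue for 0h, red for 12 hours and a bar at the mean of 3 libraries. In blood the 12 hour libraries of Nlrp3, Nlrp12 and Aim2 lie below those at 0h and those of Pycard and Casp4 above them in both genotypes, and the libraries of αD KO lung at 0h and 12 hours overlap for all 9 genes.

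In blood neutrophils of WT mice, 3 sensors were lower and the adaptor and caspase-11 were higher at 12 hours after CLP. Nlrp3, Nlrp12 and Aim2 fell between 3.64-fold and 8.66-fold, and Pycard and Casp4 rose 7.85-fold and 3.65-fold. So 5 of the 9 members were called, where 13.5% of all 14625 genes tested were called (edgeR, adjusted p under 0.05 and a change of more than 1 on the log2 scale). The median log2 fold change was −0.31 over the members and −0.15 over all genes tested. In αD KO blood the same 5 genes were called in the same directions, where 8.75% of 14156 genes were called, with medians of −0.51 and −0.14. In CPM, the libraries at 0h and 12 hours did not overlap for 8 members in WT (38% of genes) and for the 5 called members in αD KO (33.3%). DESeq2 called 6 members in WT, adding Ninj1 (6.94% of genes), and the same 5 in αD KO (5.69%). Its shares, here and below, are of all genes with counts, among them genes without an adjusted p that could not be called. They are therefore low beside those of edgeR. In WT blood DESeq2 called 2909 of 41941 genes and edgeR 1975 of 14625.

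Nlrp3, the sensor of potassium efflux and membrane damage, measured 231, 102 and 174 CPM in WT blood at 0h (libraries 1a, 1b and 2) and 12.6, 17.1 and 48.1 CPM at 12 hours. In αD KO blood it measured 149, 144 and 62.7 CPM at 0h and 19.7, 16.7 and 27.6 CPM at 12 hours. Each library at 12 hours was below each at 0h in both genotypes. The log2 fold change was −2.76 (SE 0.59, adjusted p = 0.0228) in WT and −2.55 (SE 0.42, adjusted p = 0.0116) in αD KO. Nlrp12, a sensor of the same family described both as an inflammasome sensor and as a restraint on NF-kB signalling, had 567, 296 and 482 CPM in the WT libraries at 0h, and at 12 hours 86.1, 135 and 161 CPM. Its values in αD KO were 477, 403 and 333 CPM and then 44.6, 70.3 and 102 CPM. The groups were again separate, with log2 fold changes of −1.86 (SE 0.41, adjusted p = 0.0244) in WT and −2.55 (SE 0.37, adjusted p = 0.00760) in αD KO.

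Aim2, the sensor of cytosolic double-stranded DNA, was 28.6, 36.3 and 59.6 CPM in WT blood at 0h and 3.60, 4.09 and 7.18 CPM at 12 hours. The αD KO libraries had 44.2, 34.8 and 50.8 CPM, then 9.23, 2.97 and 4.79 CPM. This was the largest fitted fall among the members in both genotypes, with log2 fold changes of −3.12 (SE 0.42, adjusted p = 0.00513) and −2.97 (SE 0.46, adjusted p = 0.00936). Nlrc4 had the lowest total count of the 9 members over the 24 libraries. It had 0, 16 and 23 counts in WT blood at 0h and 194, 36 and 40 at 12 hours (0 of 29433699 counts in library 1a allows up to 0.107 CPM, counting error only). These groups were separate by a small margin. Its difference did not pass the test in WT (log2 2.40, SE 1.38, adjusted p = 0.30) or in αD KO (1.38, SE 0.88, adjusted p = 0.346).

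The adaptor gene Pycard went from 18.7, 11.5 and 11.5 CPM to 97.1, 62.1 and 182 CPM in WT blood and from 19.4, 11.8 and 34.6 CPM to 54.9, 161 and 98.4 CPM in αD KO blood. The lowest library at 12 hours was above the highest at 0h in both genotypes. Log2 fold changes were 2.97 (SE 0.46, adjusted p = 0.00793) in WT and 2.22 (SE 0.49, adjusted p = 0.0334) in αD KO. Casp4 had a narrow range in WT at 0h, with 45.7, 38.5 and 45.5 CPM, and had 209, 74.3 and 209.9 CPM at 12 hours. Its αD KO libraries had 45.0, 39.9 and 45.4 CPM, then 92.7, 112 and 212 CPM. Both rises passed the test (1.87, SE 0.42, adjusted p = 0.0258 and 1.62, SE 0.35, adjusted p = 0.0313). Casp1, next to Casp4 on chromosome 9, was 33.0 to 49.1 CPM at 0h and 53.3 to 77.8 CPM at 12 hours in WT, and 36.3 to 64.5 and 52.9 to 109.9 CPM in αD KO, where the libraries overlapped. Its log2 differences were 0.66 (SE 0.28, adjusted p = 0.164) and 0.64 (SE 0.35, adjusted p = 0.270). In TPM the WT libraries of Casp1 overlapped too, at 70.1 to 79.0 TPM at 0h and 58.6 to 78.6 TPM at 12 hours.

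The genes of the lytic steps did not pass the test in blood. Gsdmd, the pore-forming substrate, was 152 to 236 CPM at 0h and 153 to 188 CPM at 12 hours in WT, with overlapping libraries (log2 −0.31, SE 0.30, adjusted p = 0.540). In αD KO it was 168 to 251 and 104 to 196 CPM (−0.51, SE 0.32, adjusted p = 0.334). In TPM the libraries of Gsdmd did not overlap in either genotype. They were 272 to 369.9 TPM at 0h and 126 to 168 TPM at 12 hours in WT, and 245 to 368 and 105 to 173 TPM in αD KO. The difference of Gsdmd in blood thus depends on the scale, and TPM were not tested. Ninj1 had 856, 259 and 367 CPM in WT at 0h, and at 12 hours 204, 71.8 and 258 CPM, and the highest library at 12 hours was just below the lowest at 0h. Its log2 difference of −1.54 (SE 0.61) had an adjusted p of 0.141, and of 0.0322 with the library number as a block (−1.53). With that block 6 of the 9 members and 18.4% of all genes were called. Libraries of the same number deviated together in this comparison, but that check cannot show whether libraries 1a or 2 pair. With the 2 files of sample 1 summed, Ninj1 was not called in WT (−1.35, adjusted p = 0.0807). The αD KO libraries of Ninj1 overlapped, with 429, 224 and 401 CPM, then 289, 142 and 174 CPM (−0.84, SE 0.36, adjusted p = 0.176). In TPM they did not, at 480.0 to 713 and then 142 to 331 TPM.

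Between the genotypes the changes in blood were alike in sign for all 9 genes, and no interaction of genotype and time was called (0 of 19792 genes, 0 members at an unadjusted p under 0.05, and 0 members with DESeq2, which called 0.00227% of genes). The differences between the changes ranged from −0.90 (SE 1.67, Nlrc4) to 0.79 (SE 0.88, Ninj1) on the log2 scale, and a p above the threshold does not show equal changes. Marker sums also differed over the same hours. The neutrophil sum was 36976 to 47081 CPM at 0h and 126312 to 190047 CPM at 12 hours in WT blood, and 39832 to 58177 and 105199 to 153945 CPM in αD KO blood, with 5 and 4 of its 8 genes called higher and 1 lower in each. The immature neutrophil sum was 164 to 18076 CPM at 0h and 23422 to 94663 CPM at 12 hours in αD KO blood, where none of its 5 tested genes was called, and 1 of 6 was called higher in WT blood. The monocyte and macrophage sum went from 551 to 1138 CPM down to 134 to 282 CPM in WT and from 695 to 1485 down to 121 to 185 CPM in αD KO. Of its 12 genes, 10 were tested in WT with 3 called lower and 1 higher, and 11 in αD KO with 5 called lower. Platelet sums were 26.0 to 598 CPM at 0h and at most 35.8 CPM at 12 hours, with 2 of 4 genes called lower in WT. In αD KO, 1 of 4 B cell and 1 of 6 T and NK cell markers were called lower. Library 2 of αD KO blood 0h alone had high sums of these, with 373 CPM of B cell and 276 CPM of T and NK cell markers. Libraries 1a and 1b had 25.3 and 25.5 CPM and 24.5 and 13.7 CPM. The lung structural sum was 18.9, 27.9 and 254 CPM at 0h and 13.4 to 15.5 CPM at 12 hours in WT blood, where 1 of its 5 tested genes was called lower. In sorted bulk cells, fewer cells of a type and less RNA per cell cannot be told apart, and the part of these cells in the member values was not tested.

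The calls in blood depended on single libraries, while the fold changes of the called genes kept their direction. A fit without a library also has fewer libraries, and its filter on low counts was rerun on those kept. Without WT blood 0h library 1a or 2, or without WT blood 12 hours library 1a or 2, no member was called in WT blood, and 0.811%, 0.255%, 0.102% and 0.00999% of all genes were. Without library 1b of 0h or of 12 hours, 5 and 4 members were called, against 18.4% and 9.9% of genes. The log2 fold change then stayed between −3.55 and −2.38 for Nlrp3, between −3.46 and −2.56 for Aim2 and between 2.52 and 3.36 for Pycard. In αD KO blood, no member was called without αD KO blood 0h library 1a (0.456% of genes), and Nlrp12 alone was called without αD KO blood 12 hours library 2 (0.973%). With the 2 files of sample 1 summed, Nlrp3 (adjusted p = 0.0813), Pycard (0.0568) and Casp4 (0.0641) lost their calls in αD KO blood (3.84% of genes called), and all 5 genes did with all 8 groups in a single fit (0.236%). That single fit called Aim2 and Pycard in WT blood (4.12%), and without the filter on low counts Nlrp3, Aim2 and Pycard were called there (2.25%). In αD KO blood, without 0h library 1b or 2, 3 and 4 members were called (4.67% and 3.51%), and without 12 hours library 1a or 1b, 2 and 4 members (1.54% and 8.74%).

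**Figure D2:**
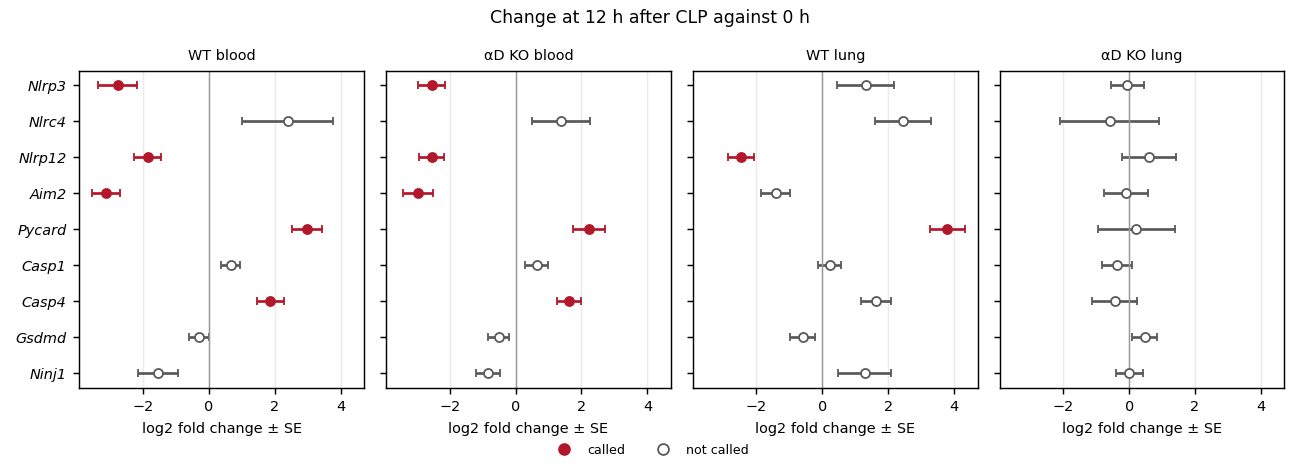
Log2 fold change (x axis) of each gene at 12 hours after CLP against 0h, with its SE as the bar, for WT blood, αD KO blood, WT lung and αD KO lung, from the edgeR fit of each pair of groups. Filled red points passed the test: 5 genes in each blood panel, Nlrp12 and Pycard in WT lung and none in αD KO lung.

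In lung neutrophils of WT mice, the opposite shift of Nlrp12 and Pycard was also present. Nlrp12 fell 5.50-fold and Pycard rose 13.9-fold, and 2 of the 9 members were called where 9.02% of 14859 genes were. The median log2 fold change was 1.28 over the members and 0.03 over all genes tested, and 4 members had libraries without overlap (32.1% of genes). The libraries of Nlrp12 were 529.6, 374 and 592 CPM at 0h and 64.9, 103 and 105 CPM at 12 hours, without overlap (log2 −2.46, SE 0.39, adjusted p = 0.0131). With all 8 groups in a single fit Nlrp12 was not called (−2.45, adjusted p = 0.0556). Those of Pycard were 9.61, 5.40 and 5.73 CPM and then 50.6, 153 and 81.8 CPM, also without overlap (3.79, SE 0.53, adjusted p = 0.00852). Aim2 had 67.1, 41.9 and 71.5 CPM at 0h, then 27.4, 10.7 and 30.5 CPM. Casp4 had 72.8, 46.3 and 63.3 CPM, then 317, 121 and 127 CPM. For both, the groups were separate but the adjusted p was above the threshold (Aim2 log2 −1.42, SE 0.43, adjusted p = 0.0738 and Casp4 1.62, SE 0.46, adjusted p = 0.0633).

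Nlrp3 and Ninj1 divided the WT lung libraries at 12 hours. Nlrp3 was 177, 149 and 280.1 CPM at 0h and 735, 39.4 and 776 CPM at 12 hours, so libraries 1a and 2 were above all libraries at 0h and library 1b was below them. Ninj1 had the same pattern, with 568, 318 and 308 CPM at 0h and 1138, 114 and 1754 CPM at 12 hours. Neither passed the test (Nlrp3 log2 1.31, SE 0.86, adjusted p = 0.372 and Ninj1 1.28, SE 0.80, adjusted p = 0.352). Library 1b of this group was also apart in its markers. Its neutrophil sum was 176166 CPM, against 68178 and 83219 CPM in libraries 1a and 2 and 126312 to 190047 CPM in WT blood at 12 hours, and its immature neutrophil sum was 22645 CPM against 49199.9 and 45025 CPM. Its lung structural sum was 409 CPM, against 48.2 and 286 CPM in libraries 1a and 2 and 13.4 to 15.5 CPM in WT blood at 12 hours. Between 0h and 12 hours in WT lung, the immature neutrophil sum went from 164 to 1303 CPM up to 22645 to 49199.9 CPM, with 4 of 5 tested genes called higher. The monocyte and macrophage sum went from 677 to 1016 CPM down to 244 to 278 CPM, with 3 of 9 called lower, and 2 of 4 B cell markers were called lower. Csf1r alone went from 495 to 715 CPM down to 186 to 202 CPM. The part of all these in the values of the members was not tested.

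With WT lung 12 hours library 1b left out, 7 of the 9 members were called (Nlrp3, Nlrc4, Pycard, Casp4 and Ninj1 higher, Nlrp12 and Aim2 lower), where 25.3% of all genes were. Nlrp3 then had a log2 fold change of 1.76 (adjusted p = 0.00608), Pycard 3.11 (adjusted p = 0.000990) and Nlrp12 −2.70 (adjusted p = 0.00177). Without WT lung 0h library 1a or 2, or WT lung 12 hours library 1a, no member and 0% of genes were called, and without 12 hours library 2 no member and 0.122%. Without 0h library 1b, Nlrp12 and Pycard were called, with 5.03% of genes. The DESeq2 test on all libraries called 5 members, adding Nlrc4, Aim2 and Casp4 (5.61% of genes). Nlrc4 had 9, 26 and 11 counts at 0h and 124, 15 and 58 at 12 hours (log2 2.45, SE 0.85, adjusted p = 0.108). Casp1 was 41.6 to 52.9 CPM and then 32.8 to 68.5 CPM, and Gsdmd 193 to 292 and then 111 to 201 CPM, with overlapping libraries in both. Their log2 differences were 0.22 (SE 0.36) and −0.59 (SE 0.38). In TPM neither gene overlapped. Casp1 was 80.2 to 92.6 and then 29.7 to 64.5 TPM, and Gsdmd 340.4 to 431 and then 88.2 to 179.6 TPM.

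In the libraries labelled αD KO lung, no member was called and no gene of 17939 was (0%), with 72 genes and 0 members at an unadjusted p under 0.05 and none called by DESeq2, which gave no adjusted p for Pycard. Nlrp12 was 471, 392 and 67.1 CPM at 0h and 506, 108 and 766 CPM at 12 hours. Pycard was 8.43, 7.99 and 62.7 CPM and then 6.63, 77.0 and 7.27 CPM. In both genes the libraries of a group were far apart, with library 2 at 0h and library 1b at 12 hours on the side of the WT libraries at 12 hours. These are the libraries at 1.02 and 0.85 on the scale of other genes. Casp4 followed the same split, with 277 CPM in library 2 at 0h against 85.1 and 49.1 CPM, and 150.4 CPM in library 1b at 12 hours against 56.7 and 92.7 CPM. Aim2 had its lowest values in the same libraries, with 51.0, 36.3 and 21.5 CPM, then 55.4, 7.27 and 37.6 CPM.

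Nlrp3 was 111, 199.6 and 367 CPM and then 181, 221 and 248 CPM in these libraries, and library 2 at 0h was highest. Ninj1 was 377, 245 and 548 CPM and then 371, 324 and 473 CPM. Neither reached the levels of WT lung libraries 1a and 2 at 12 hours. The log2 differences between the labelled times were −0.05 (SE 0.49) for Nlrp3, 0.61 (SE 0.82) for Nlrp12, 0.22 (SE 1.17) for Pycard and −0.44 (SE 0.69) for Casp4. Leaving out each library in turn, that of Pycard ran from −1.91 to 1.81 and that of Nlrp12 from 0.08 to 1.17, with an adjusted p of at least 0.993. Nlrc4 had 9, 17 and 90 counts and then 3, 54 and 3, Casp1 was 33.0 to 102 and then 42.4 to 63.5 CPM, and Gsdmd was 133 to 202 and then 149 to 315 CPM.

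**Figure D3:**
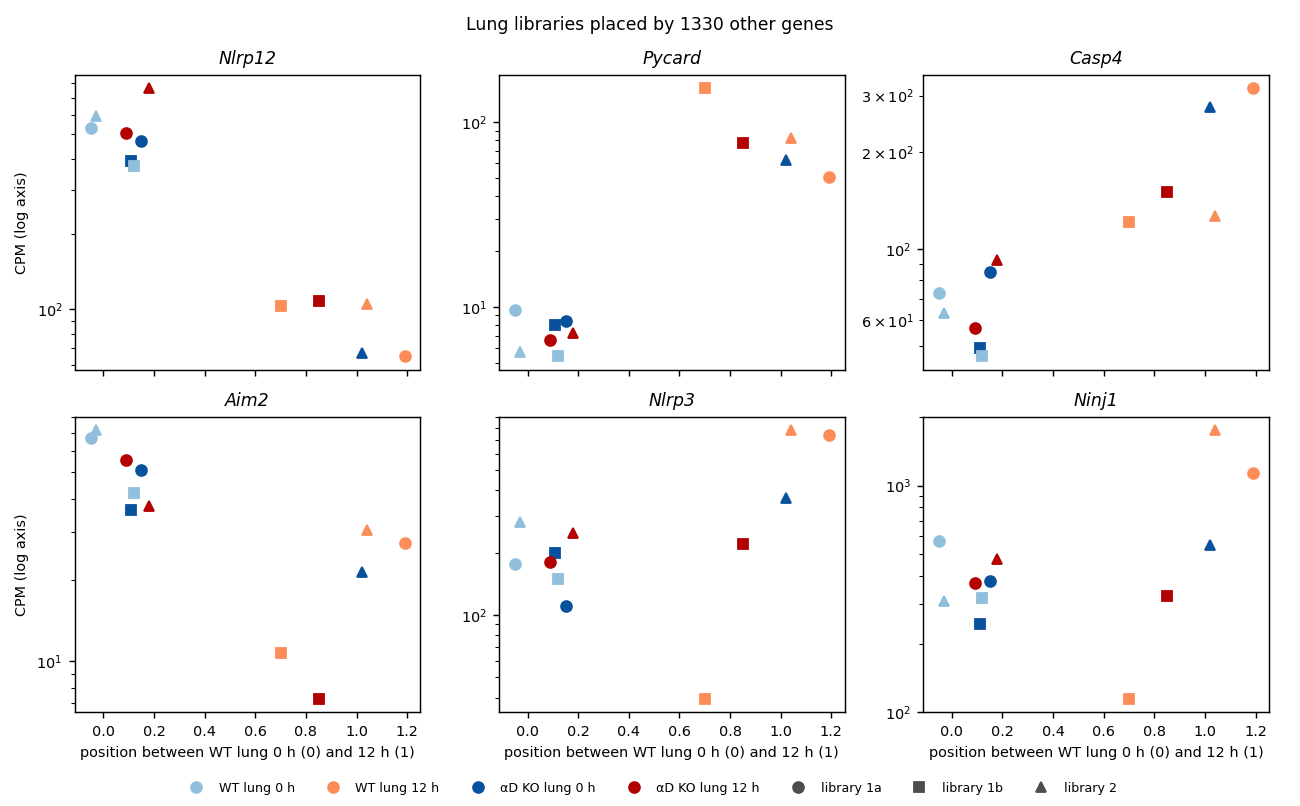
Level of 6 genes in CPM (log y axis) in the 12 lung libraries against the position of each library on the scale of 1330 other genes (x axis, no unit, 0 at the mean of WT lung 0h and 1 at the mean of WT lung 12 hours). Each WT library was left out of its own group mean, and the 1330 genes were called between these WT libraries. Colours show the labelled group and shapes the library. Library 2 of αD KO lung 0h and library 1b of αD KO lung 12 hours lie at 1.02 and 0.85 and have the low Nlrp12 and high Pycard of WT lung at 12 hours, and WT lung 12 hours library 1b at 0.70 has the lowest Nlrp3 and Ninj1.

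No member was called between the libraries labelled αD KO and WT in any tissue or time, and directions here rest on those labels, which Itgad went against. At 0h, 0.0115% of 17356 genes were called in blood and 0% of 18232 in lung, and at 12 hours 0% of 12596 in blood and 0% of 16764 in lung. Of the 36 tests of a member, 1 had an unadjusted p under 0.05 (Nlrp12 in lung at 12 hours, where 1390 of all genes had), and DESeq2 called none, with 0.0116%, 0.0162%, 0.0363% and 0.359% of genes called in blood at 0h, lung at 0h, blood at 12 hours and lung at 12 hours. In blood at 0h the log2 differences lay between −0.46 (SE 0.42, Nlrp3) and 0.67 (SE 0.41, Pycard), and the median was 0.03 over the members and −0.01 over all genes. In blood at 12 hours they lay between −0.77 (SE 0.38, Nlrp12) and 0.29 (SE 0.31, Casp1), with medians of −0.14 and 0.03. In lung at 0h the largest difference was in Pycard, with 8.43, 7.99 and 62.7 CPM in αD KO against 9.61, 5.40 and 5.73 CPM in WT (1.89, SE 0.83, adjusted p = 0.983), and 2 of the 3 αD KO libraries lay within the WT range. Without αD KO lung 0h library 2, the difference of Pycard was 0.20. The medians there were 0.14 and 0.17.

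In lung at 12 hours, the αD KO libraries had 506, 108 and 766 CPM of Nlrp12, and the WT libraries 64.9, 103 and 105 CPM. All 3 αD KO libraries were above WT (Nlrp12 alone among the members, 10.9% of genes had no overlap), but library 1b by only a few CPM, and the adjusted p was 0.598 (log2 2.49, SE 0.71). Pycard had 6.63, 77.0 and 7.27 CPM against 50.6, 153 and 81.8 CPM in WT, with overlap (−1.62, SE 0.94, adjusted p = 0.658). Nlrp3 (181 to 248 against 39.4 to 776 CPM) and Ninj1 (324 to 473 against 114 to 1754 CPM) had WT libraries on both sides of αD KO. The median log2 difference was −0.86 over the members and 0.13 over all genes. Marker sums separated the same groups, with 779, 437 and 809.9 CPM of monocyte and macrophage markers in αD KO against 263, 278 and 244 CPM in WT, and 7018 to 16817 against 22645 to 49199.9 CPM of immature neutrophil markers. Csf1r alone was 338 to 610.1 CPM in αD KO against 186 to 202 CPM in WT. The part of these sums in the member values was not tested. Leaving out single libraries gave adjusted p of at least 0.0689 for Nlrp12 and 0.0697 for Pycard, and no member was called without αD KO or WT library 1b (0.0433% and 1.11% of genes).

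Using libraries 1a and 2 alone, 6 members were called in lung at 12 hours, where 30.1% of all genes were. Nlrp12 was higher in αD KO (log2 2.96, adjusted p = 0.000328) and Pycard (−3.19, adjusted p = 0.000113), Nlrp3 (−1.76), Nlrc4 (−5.22), Casp4 (−1.53) and Ninj1 (−1.72) were lower. In the libraries used, the monocyte and macrophage sums were 779 and 809.9 CPM in αD KO against 263 and 244 CPM in WT, and the immature neutrophil sums 7018 and 9399.8 against 49199.9 and 45025 CPM, and their part in the calls was not tested. This fit leaves out library 1b of both genotypes. That of αD KO lung 12 hours lay at 0.85, and the libraries kept lie at 0.09 and 0.18. That of WT lung 12 hours lay at 0.70 and had the lowest Nlrp3 (39.4 CPM) and Ninj1 (114 CPM) of the lung libraries. Without the WT library alone, the differences were −1.72 (adjusted p = 0.0711) for Nlrp3 and −1.79 (adjusted p = 0.0782) for Ninj1, and without the αD KO library alone −1.21 (adjusted p = 0.721) and −1.18 (adjusted p = 0.700). The change with time differed between genotypes in lung by 3.17 (SE 1.06, adjusted p = 0.410) for Nlrp12, −3.59 (SE 1.37, adjusted p = 0.410) for Pycard and −2.05 (SE 0.87, adjusted p = 0.442) for Casp4, and 0% of 23211 genes were called. Leaving out single libraries, these differences ran from 2.65 to 3.91 for Nlrp12, from −5.49 (without αD KO lung 12 hours library 1b) to −1.91 for Pycard and from −2.36 to −1.03 for Casp4. The value nearest 0 of Pycard and of Casp4 was without αD KO lung 0h library 2. These 3 members and 2432 of all genes had an unadjusted p under 0.05, and DESeq2 called none of the members and 0.707% of genes.

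**Figure D4:**
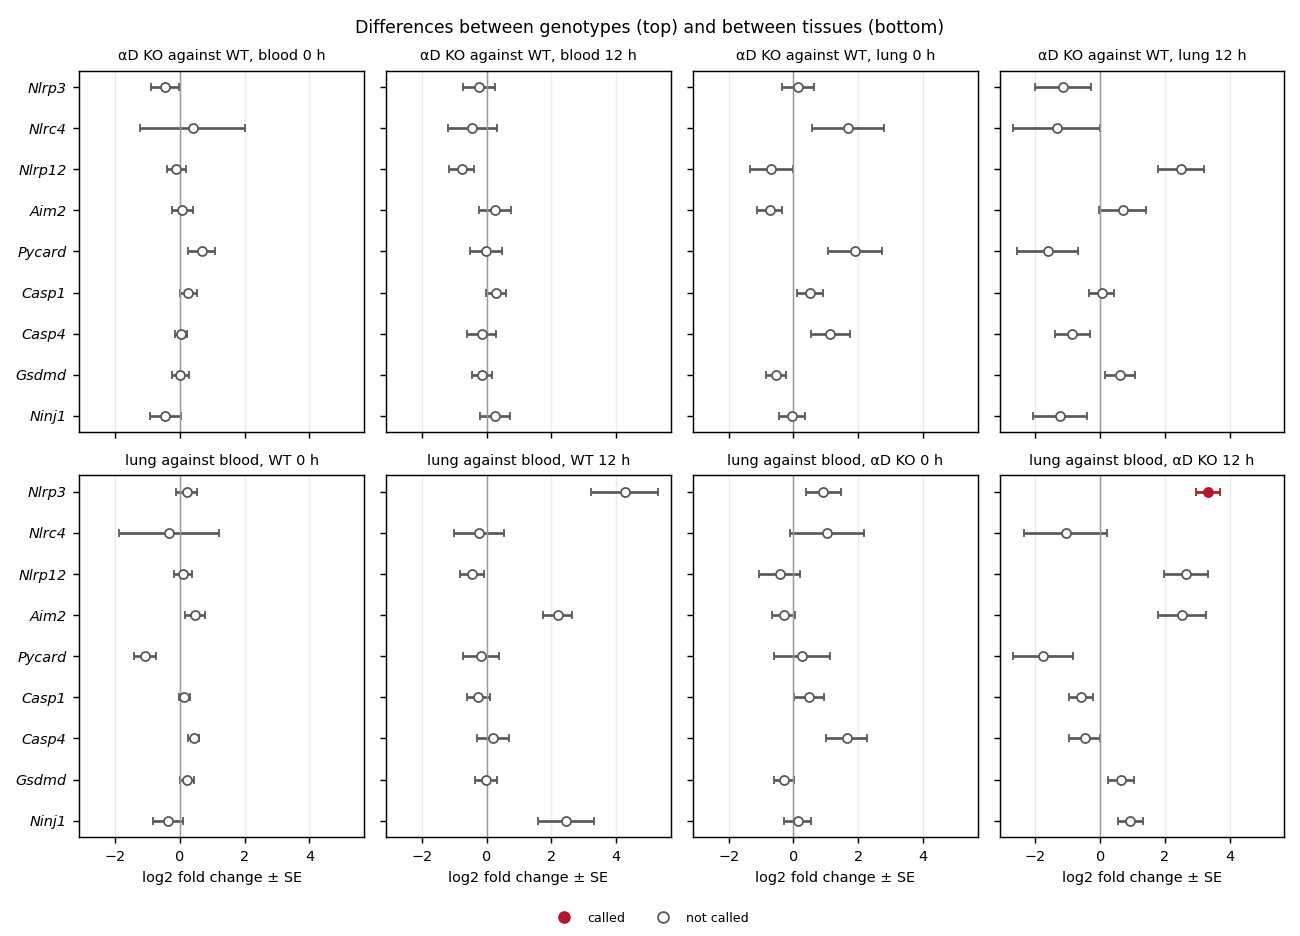
Log2 fold change (x axis) with its SE of each gene between αD KO and WT (top row) and between lung and blood (bottom row), from the edgeR fit of each pair of groups. The filled red point, Nlrp3 in αD KO lung against blood at 12 hours, is the 1 difference that passed the test.

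Between lung and blood, 1 member was called, Nlrp3 in αD KO at 12 hours. The log2 difference of Nlrp3 between lung and blood was 0.21 (SE 0.33) in WT and 0.92 (SE 0.54) in αD KO at 0h, and 4.26 (SE 1.03) and 3.33 (SE 0.37) at 12 hours. In αD KO at 12 hours, Nlrp3 was 10.1-fold higher in lung and was called (adjusted p = 0.0299), where 0.0548% of 14592 genes were. The αD KO values were 181, 221 and 248 CPM in lung against 19.7, 16.7 and 27.6 CPM in blood, so each lung library was above each blood library. The call was lost without αD KO blood 12 hours library 1a or 2 or αD KO lung 12 hours library 1a or 2 (0% of genes), in fits with fewer libraries and a rerun filter. It was also lost with all 8 groups in a single fit (adjusted p = 0.0990). Over the 6 fits without a library its log2 difference was 3.11 to 3.50 and its adjusted p at most 0.355, and it was called without αD KO blood 12 hours library 1b (2.64% of genes). Lung libraries 1a and 2, without either of which the call was lost, lay at 0.09 and 0.18, near WT lung 0h. Monocyte and macrophage sums were 437 to 809.9 CPM in these lung libraries and 121 to 185 CPM in blood, and lung structural sums 46.3 to 183 and 5.22 to 20.9 CPM. Immature neutrophil sums were 7018 to 16817 CPM in lung and 23422 to 94663 CPM in blood. Their part in the difference was not tested. In WT at 12 hours, 735, 39.4 and 776 CPM in lung faced 12.6, 17.1 and 48.1 CPM in blood, which overlapped through lung library 1b (adjusted p = 0.131). No member and 0.0442% of 13590 genes were called there.

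The differences of Aim2 and Ninj1 between lung and blood at 12 hours did not pass the edgeR test. Aim2 was 27.4, 10.7 and 30.5 CPM in WT lung against 3.60, 4.09 and 7.18 CPM in WT blood, with no overlap (log2 2.19, SE 0.46, adjusted p = 0.116). The αD KO libraries overlapped, with 55.4, 7.27 and 37.6 CPM against 9.23, 2.97 and 4.79 CPM (2.53, SE 0.73, adjusted p = 0.120). Ninj1 was 1138, 114 and 1754 CPM in WT lung against 204, 71.8 and 258 CPM in WT blood (2.46, SE 0.86, adjusted p = 0.204), and lung library 1b lay below 2 of the blood libraries. In αD KO it was 371, 324 and 473 CPM against 289, 142 and 174 CPM with no overlap (0.93, SE 0.39, adjusted p = 0.209). Without WT lung 12 hours library 1b, Nlrp3, Aim2 and Ninj1 were called in WT, where 20.2% of all genes were, and without any other library no member and at most 0.00587% of genes. DESeq2 called the same 3 genes in WT on all libraries (2.13% of genes), and Nlrp3, Nlrp12 and Aim2 in αD KO (3.02%). Marker sums separated the WT groups as well. Immature neutrophil sums were 22645 to 49199.9 CPM in WT lung and 63813 to 147469 CPM in WT blood, and lung structural sums 48.2 to 409 and 13.4 to 15.5 CPM. The part of these sums in the member values was not tested. The libraries had no overlap for 1 member in WT and 3 in αD KO, and for 23.7% and 27.8% of genes. Nlrp12 in αD KO lung (506, 108 and 766 CPM) lay above blood (44.6, 70.3 and 102 CPM) in every library (2.65, SE 0.68, adjusted p = 0.102), in a lung group of which 2 libraries lay near WT lung 0h. Without αD KO lung 12 hours library 1b, 5 members were called there, where 11.2% of all genes were.

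At 0h no member was called between lung and blood (0% of 15967 genes called in WT and 0% of 19000 in αD KO, none of the members by DESeq2, which called 0.0976% and 0.262% of genes). Pycard was 9.61, 5.40 and 5.73 CPM in WT lung and 18.7, 11.5 and 11.5 CPM in WT blood, without overlap (log2 −1.08, SE 0.35, adjusted p = 0.999). Casp4 in αD KO was 85.1, 49.1 and 277 CPM in lung and 45.0, 39.9 and 45.4 CPM in blood (1.65, SE 0.63, adjusted p = 1.000). Without αD KO lung 0h library 2, which lay at 1.02 on the scale of other genes, the difference of Casp4 was 0.73. These were the tests of a member at 0h with an unadjusted p under 0.05, which 406 and 553 of all genes had in WT and αD KO. Casp4 in WT also had no overlap, with 72.8, 46.3 and 63.3 CPM in lung and 45.7, 38.5 and 45.5 CPM in blood (0.42, SE 0.18, adjusted p = 0.999). Of all genes, 6.85% in WT and 7.15% in αD KO had libraries without overlap, beside 2 and 1 of the members. Platelet sums were 7.54 to 27.5 CPM in WT lung and 47.0 to 118 CPM in WT blood, and 7.34 to 18.4 and 26.0 to 598 CPM in αD KO. In αD KO, lung structural sums were 85.6 to 833 CPM in lung and 15.1 to 34.6 CPM in blood, and monocyte and macrophage sums 228 to 681 and 695 to 1485 CPM. The part of these sums in the member values was not tested. The lung comparisons against blood share their libraries with the comparisons of time and of genotype.

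In WT, Nlrp3 fell in blood (log2 −2.76), while its lung difference of 1.31 (SE 0.86, adjusted p = 0.372) did not pass the test and 1 of the 3 lung libraries at 12 hours was below all at 0h. The interaction of tissue and time was 4.0 (SE 1.25, adjusted p = 0.876) in WT and 2.19 (SE 0.71, adjusted p = 0.403) in αD KO, and 0% of 23497 and 22218 genes were called by edgeR. DESeq2 called Nlrp3 in both genotypes (adjusted p = 0.0415 and 0.0372), where it called 0.214% and 0.585% of all genes. The median interaction of all genes was 0.56 in WT and 0.44 in αD KO with TMM scaling and 0.73 and 0.64 with RLE scaling, and over the members −0.11 and 0.61 with TMM scaling. Aim2 (1.59, SE 0.66) and Ninj1 (2.74, SE 1.21) in WT had an unadjusted p under 0.05 as well, and in αD KO so did Nlrp12 (3.02, SE 1.04), Aim2 (2.72, SE 0.93) and Casp4 (−2.44, SE 0.86). Of all genes, 1290 in WT and 2352 in αD KO had such a p. Without αD KO lung 0h library 2, the αD KO value of Casp4 was −1.29 and that of Nlrp12 2.57.

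Ratios within a library restate the levels above on a scale that does not depend on library size. The ratio of Pycard to Nlrp12 in TPM was 0.0473 to 0.0772 in WT blood at 0h and 0.912 to 2.25 at 12 hours, and 0.0583 to 0.206 and 1.92 to 4.56 in αD KO blood. In WT lung it was 0.0192 to 0.0360 and then 1.55 to 2.97. In αD KO lung it was 0.0355, 0.0405 and 1.86 at 0h and 0.0260, 1.42 and 0.0189 at 12 hours, so each of these libraries had a ratio either near the WT values at 0h or near those at 12 hours. The ratio of Casp4 to Casp1 in TPM was 0.375 to 0.470 in WT blood at 0h and 0.563 to 1.25 at 12 hours. In WT lung it was 0.449 to 0.566 and then 0.810 to 1.87, and in αD KO blood 0.284 to 0.443 and then 0.539 to 0.856. In αD KO lung it was 0.513, 0.601 and 1.09 at 0h and 0.539, 1.21 and 0.589 at 12 hours, with overlap. The ratio of Pycard to Nlrp3 went from 0.0706 to 0.120 up to 3.89 to 8.20 in WT blood, whereas in WT lung at 12 hours it was 0.0736, 4.16 and 0.113, with library 1b near the blood values. It was 0.0875 to 0.589 and then 2.98 to 10.3 in αD KO blood, and in αD KO lung 0.0808, 0.0428 and 0.182 and then 0.0391, 0.371 and 0.0313.

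Other genes of the pathway were described with a list of 52 genes in 10 groups (other sensors, regulators, GBP and IRG genes, caspases, gasdermins, cytokine substrates, neutrophil serine proteases and their inhibitor, membrane repair, ninjurin and necroptosis). In WT blood at 12 hours against 0h, 10 of 40 tested were called higher and 5 lower, where 7.75% and 5.75% of all genes were. These calls also depended on single libraries. Without WT blood 12 hours library 2, only 2 of all 20016 genes tested were called. The 5 with the smallest p were Casp6, Nlrp1a, Naip6, Serpinb1a and Ripk3. Serpinb1a, an inhibitor of neutrophil serine proteases, went from 31.1 ± 28.4 to 1493 ± 592 CPM (SD, n = 3), a log2 fold change of 5.51 (SE 0.82, adjusted p = 0.00713). Naip6, a NAIP-family gene, rose from 2.96 ± 0.585 to 18.6 ± 4.24 CPM (2.60, adjusted p = 0.00477) and Casp6, an executioner caspase, from 8.13 ± 2.17 to 46.1 ± 4.76 CPM (2.45, adjusted p = 0.00347). Ripk3, a kinase of necroptosis, rose from 2.85 ± 1.39 to 20.3 ± 4.15 CPM (2.74, adjusted p = 0.00980). Nlrp1a, another inflammasome sensor, fell from 31.4 ± 6.04 to 1.46 ± 0.990 CPM (−4.48, adjusted p = 0.00373).

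In αD KO blood 2 of 41 tested list genes were called higher and 5 lower, where 3.75% and 4.99% of all genes were. Without αD KO blood 0h library 1a, 74 of all 16216 genes tested were called. Nlrp1a fell from 26.0 ± 2.07 to 0.854 ± 0.901 CPM (log2 −5.05, adjusted p = 0.00844) and Nlrp1b from 11.5 ± 4.71 to 0.322 ± 0.345 CPM (−5.31, adjusted p = 0.00974). The interleukin-1β gene Il1b fell from 4601 ± 1363 to 1282 ± 352 CPM (−1.89, SE 0.35, adjusted p = 0.0188), and in WT blood from 4575 ± 1489 to 628 ± 396 CPM (−2.91, SE 0.59, adjusted p = 0.0195). Panx1, a membrane channel, fell from 6.58 ± 4.03 to 0.396 ± 0.114 CPM (−4.05, adjusted p = 0.0122), and Casp6 rose from 9.0 ± 3.82 to 76.3 ± 35.2 CPM (3.03, adjusted p = 0.0116). In WT lung 5 of 40 were called higher and 3 lower, where 5.24% and 3.78% of all genes were. These calls were lost without WT lung 0h library 1a or 2 or 12 hours library 1a, where 0% of all genes were called. Serpinb1a (18.6 ± 7.75 to 365 ± 103 CPM), Naip6 (1.68 ± 0.118 to 11.4 ± 1.27), Ripk3 (2.55 ± 0.644 to 88.9 ± 64.6) and Casp6 (5.84 ± 0.817 to 39.9 ± 23.1) rose and Nlrp1b (22.0 ± 7.70 to 1.11 ± 1.03) fell. No list gene was called in αD KO lung or between the genotypes or tissues. The list was written with earlier results of these data known, and its counts are descriptions. Its median log2 fold change was −0.34 in WT blood, 0.00 in αD KO blood and 0.11 in WT lung, beside −0.15, −0.14 and 0.03 over all genes.

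Over the 8 group means of log2 CPM, the genes most like each member among 6606 genes of at least 10 CPM were found by Pearson's r, given as a description. Nlrp3 was closest to Ppp1r15a (0.995) and Msrb1 (0.991), Nlrp12 to Spint2 (0.997) and Nlrp1a (0.995), and Aim2 to Gas5 (0.991) and Mpzl3 (0.990). Pycard was closest to Cc2d1b (0.989) and Mbd1 (0.988), Casp4 to Samsn1 (0.990) and Fpr1 (0.987), and Ninj1 to Metrnl (0.986) and Rab11fip1 (0.985). Values were lower for Nlrc4 (Sh3bgrl, 0.983, and Zfp639, 0.976), Gsdmd (Dhx16, 0.970, and Fes, 0.969) and Casp1 (Zfp810, 0.943, and Yod1, 0.942). Among the members, Nlrp3 and Ninj1 were most alike (0.95) and Nlrp12 and Gsdmd followed (0.91), while Nlrp12 and Pycard were most opposed (−0.93). The 8 points share the tissue, time and genotype design and the spread of 3 libraries each.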

How the data were processed

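Ly6G+/CD11b+/CD45.2+ neutrophils were sorted, and full-length cDNA was amplified and made into libraries by tagmentation. Per the labels and the submitters' processing notes, reads were handled with Trimmomatic 0.36 and STAR 2.5.2b on GRCm38. The authors counted uniquely mapped reads within exons and deposited whole-number counts for 49315 genes in each of 24 files, neither normalized nor filtered. Counting strand is not given in the sources used here. Positions of 44823 genes equalled those of the GRCm38 annotation used for symbols, which 48970 gene IDs matched.

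Each file was taken as a library, since the chi-square divided by its degrees of freedom was 63.5 to 328.5 between 1a and 1b and 43.8 to 283.8 between 1a and 2 (genes with at least 10 counts). Whether both files of sample 1 are from the same animal is unknown, and summing them is an alternative. Tests used edgeR 4.0.16 in R 4.3.3 (TMM, filterByExpr, quasi-likelihood F test, two-sided, Benjamini-Hochberg over all genes tested) on the libraries of the groups compared. Genes were called where the adjusted p was under 0.05 and log2 fold changes exceeded 1 in either direction, and an interaction at the adjusted p alone. An exact permutation test of 3 against 3 libraries cannot go below 0.1 and was not used. CPM were TMM-scaled with log2 CPM at a prior count of 1, and TPM used the exon lengths in the files. Tables were made in Python 3.11.15 (pandas 2.3.3, numpy 2.4.6, scipy 1.17.1, matplotlib 3.10.9). The edgeR test was also run on counts simulated independently for each library. Those counts lack the shared sample 1 and the lung libraries that stood apart from their labels, so that run does not cover them. Alternatives were RLE scaling, no filter on low counts, DESeq2 1.42.0, all 8 groups in a single fit, the library number as a block, sample 1 files summed, libraries 1a and 2 only, each library left out, and the adjusted p alone. Libraries chosen by their own values were not left out together.

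Library numbers were taken to pair samples where the deviations of all 3 numbers correlated above 0.1 across genes. This was so for WT blood over time (0.458, 0.589 and 0.118), αD KO lung over time, the genotypes in blood at 0h, WT lung against blood at both times and αD KO lung against blood at 12 hours, and not in the other 6 pairs. The labels state no pairing. All 9 members are named. From the pathway list of 52 genes, at most 5 called genes with the smallest p per comparison are named, and a gene named in one comparison (Il1b) may have its value in another given beside it. The 8 marker lists (55 genes) and the pathway list were written from general knowledge. The members and lists were chosen with earlier results of these data known. No statement here rests on a list as independent evidence.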

Additional observations from a re-analysis of the deposited data

How the results depend on the processing

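The number of members called depended on the libraries used. With each library left out in turn it was 0 to 5 in WT blood over time (5 with all libraries), 0 to 4 in αD KO blood (5), 0 to 7 in WT lung (2), 0 to 3 for WT lung against blood at 12 hours (0), 0 to 5 for αD KO lung against blood at 12 hours (1) and 0 to 1 for the interaction of tissue and time in WT (0; the 1 is Nlrp3 without WT lung 12 hours library 1b, where 0.68% of all genes were called), and it remained 0 in the other 10 comparisons and interactions. In WT blood the low counts came with 18060 to 20016 genes tested instead of 14625. The filter on low counts was rerun on the libraries kept, and a smaller group lets more genes pass it. The parts of this filter, of fewer libraries and of the library left out in the lost calls were not separated. In WT blood, 3 members were called without the filter on low counts (2.25% of all genes) and 2 with all 8 groups in a single fit (4.12%). In αD KO blood, 0 were called with all 8 groups (0.236%) and 2 with sample 1 files summed (3.84%). With libraries 1a and 2 only, Pycard lost its call in αD KO blood (log2 1.48, adjusted p = 0.0697, against 2.22 with all libraries). In WT lung, 5 were called by DESeq2 (5.61%), 1 with all 8 groups (Pycard, 1.65%), 4 with files summed (12.3%) and 8 with libraries 1a and 2 only (37.2%). For αD KO against WT in lung at 12 hours, 6 were called with libraries 1a and 2 only (30.1%). For WT lung against blood at 12 hours, 3 were called without the filter (1.59%), 3 by DESeq2 (2.13%), 1 with files summed (4.47%) and 3 with libraries 1a and 2 (28.2%). For αD KO lung against blood at 12 hours these settings gave 4 (3.13%), 3 (3.02%), 3 (8.27%) and 6 (34.3%), and all 8 groups gave 0 (0.118%). With libraries 1a and 2, the interaction of genotype and time in lung had 3 members (13.2%) and that of tissue and time in WT 2 (7.41%). DESeq2 called 1 member in the interaction of tissue and time in WT (0.214%) and 1 in αD KO (0.585%).

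With the library number as a replicate block, 6 members were called in WT blood (Ninj1 added, 18.4% of all genes called), 5 in αD KO blood (10.7%), 3 in WT lung (Aim2 added, adjusted p = 0.0403, 6.01%, where the numbers did not pair), 1 in αD KO lung against blood at 12 hours (0.144%) and 0 elsewhere, and the block changed no other member call. RLE scaling and the adjusted p alone left every count of members within 1.5 times. Over all alternatives, single members stayed on the same side of the threshold in 1959 values, lost a call in 65 and gained one in 63, and none was reversed. Genes called among all genes ranged from 2 to 3201 in WT blood (1975), 64 to 2342 in αD KO blood (1238), 0 to 5299 in WT lung (1340), 0 to 23 in αD KO lung (0), 0 to 4686 for the genotypes in lung at 12 hours (0), 0 to 3779 for WT lung against blood at 12 hours (6) and 0 to 4881 for αD KO lung against blood at 12 hours (8). For the genotypes the ranges were 0 to 5 in blood at 0h (2), 0 to 7 in lung at 0h (0) and 0 to 80 in blood at 12 hours (0), and for lung against blood at 0h 0 to 42 in WT and 0 to 113 in αD KO (both 0). The interactions reached 1, 2480, 1167 and 261 genes. Nlrc4 had 957 counts over the 24 libraries, and standard errors of its differences were up to 1.87 on the log2 scale. The parts of depth and of the spread between libraries in them were not separated.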
